A study of Mus musculus with 12 samples.

Results

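The RNA of 53 genes of mitosis and chromosome segregation was followed through the growth of the mouse cerebral cortex. The genes were a fixed list of cyclins, mitotic kinases, kinetochore and checkpoint proteins, mitotic kinesins, condensin subunits and cytokinesis factors. All 53 were found among the 50600 Ensembl gene identifiers of the count files, each under 1 identifier, and all 53 had enough reads to be tested beside 17847 genes in all. Cortex was taken from C57BL/6 mice at embryonic days 11, 13 and 17 (E11, E13, E17) and at postnatal day 1 (P1). No treatment or altered genotype was named in the labels. Each age had 3 libraries (A, B and C) of poly(A)+ RNA, every library made from a single embryo or pup, and the 3 came from separate litters.

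A dividing cell copies its chromosomes, compacts them with condensin and topoisomerase II, and attaches each sister chromatid to spindle microtubules through a kinetochore built on the centromere. The spindle assembly checkpoint holds the anaphase promoting complex back until every kinetochore is attached. That complex then marks securin and the B-type cyclins for destruction, the sisters part, and the midzone proteins prepare the cell to divide. In the embryonic cortex the dividing cells are mainly radial glia and intermediate progenitors, whereas the neurons they produce leave the cell cycle.

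Levels are given as CPM, the reads of a gene relative to the scaled total of the library. Total counts ran from 28173745 to 45858712 per library. Pttg1, the least abundant member from E11 to E17, still had 80 to 338 reads in each library. The lowest count of any member at P1 was 89 reads, for Cenpk. The listed markers moved with age in the same libraries. Summed over 9 radial glia genes, the level was 2630 to 2700 CPM at E11, 2640 to 2690 at E13, 1210 to 1410 at E17 and 988 to 1030 at P1. The 7 intermediate progenitor genes summed to 505 to 575 CPM at E11, 1040 to 1220 at E13, 371 to 486 at E17 and 165 to 190 at P1. Single genes differed: between E11 and P1, 7 of the radial glia genes fell and 2 rose (log2 -3.13 to 1.92). Of the intermediate progenitor genes 5 fell and 1 rose, where 41.8% of all tested genes were lower and 40.5% higher. The 10 neuronal genes summed to 1260 to 1420 CPM at E11, 2760 to 3370 at E13, 10600 to 10900 at E17 and 10800 to 11100 at P1, and 6 genes of the oligodendrocyte lineage summed to 46.9 to 52.4 CPM at E11 and 324 to 364 at P1. These libraries are of whole tissue, so fewer dividing cells and less RNA per dividing cell cannot be told apart in any value given here. How far the change of cell types enters the results was not tested.

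RNA of marker genes for blood, meninges and choroid plexus was also found, with higher sums at E11 and E13 than at the later ages. The 8 erythroid genes summed to 14900 CPM in E11 A, 5110 in E11 B and 9000 in E11 C, to 464 to 1250 CPM at E13 and to at most 15.6 CPM at E17 and P1. Hba-x, Hbb-y and Hbb-bh1 are the only globin genes in that list, so its sum does not measure all blood at the later ages. Its genes also differed: between E13 and E17, 5 fell and 3 did not pass the test (log2 -13.11 to -0.4). Of all tested genes, 37% were lower and 36.8% higher in that step. The 6 meningeal fibroblast genes summed to 1180 to 1430 CPM at E11, 791 to 1080 at E13, 14.1 to 16.3 at E17 and 14 to 52.5 at P1. The summed level of the mitotic genes in the same E11 libraries was 9980, 9840 and 10100 CPM. The 5 choroid plexus genes summed to 59.6 to 222 CPM at E11, 32.5 to 375 at E13 and at most 8.41 at the later ages. Sums for 6 endothelial genes were 140 to 292 CPM and for 6 microglial genes 30 to 64.5 CPM over all 12 libraries, and 6 astrocyte genes gave 187 to 460 CPM. The astrocyte sum hides opposite changes. Between E11 and P1, 4 of its 6 genes rose and 1 fell (log2 -3.08 to 8). Of all tested genes, 41.8% were lower and 40.5% higher over that span. The part of these cells in the results was not tested.

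**Figure D1:**
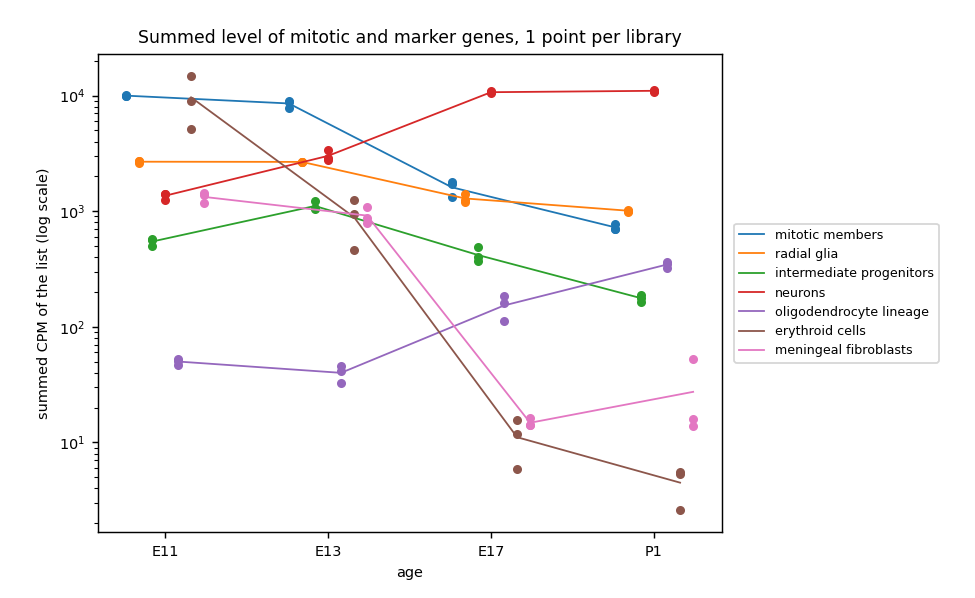
Summed CPM (log scale) of the 53 mitotic genes and of 6 marker lists at each age, 1 point per library and a line through the means. The mitotic sum lies at 9840 to 10100 CPM at E11 and 702 to 768 CPM at P1, while the neuronal sum reaches 10800 to 11100 CPM.

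The mitotic genes fell together, and most of the fall lay between E13 and E17. The steps are of unequal length, E13 to E17 being longer than E11 to E13, and rates per day were not computed. Their summed level was 9980, 9840 and 10100 CPM at E11, 8830, 7820 and 8990 at E13, 1710, 1320 and 1790 at E17, and 768, 702 and 708 at P1. Libraries of different ages did not overlap in this sum. Relative to the E11 mean the sum stood at 85.6% at E13, 16.1% at E17 and 7.27% at P1. For single members the share of the E11 level that was left at P1 ran from 2.88% for Ncapg to 42.7% for Bub3, with a median of 5.84%.

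In the comparison of E17 with E13, 53 of 53 members fell, against 37% of all tested genes that were lower and 36.8% that were higher (edgeR's quasi-likelihood test, Benjamini-Hochberg adjusted p under 0.05). The median log2 fold change of the members was -2.57 (range -2.96 to -0.83), beside a median of -0.04 over all tested genes. From E17 to P1, 52 members fell, against 25.9% of all tested genes lower and 24% higher. The median member changed by -1.34 on the log2 scale, and Pttg1, the exception, gave 0.28 ± 0.14 (SE, adjusted p = 0.119). From E11 to P1, 53 of 53 fell by a median of 4.1 on the log2 scale, or 17.1-fold, while 41.8% of all tested genes were lower and 40.5% higher. The test across the 4 ages called 53 of 53 members, and 90.2% of all tested genes.

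From E11 to E13 the members moved little. The median log2 fold change was -0.24 (range -0.49 to -0.05), and 17 of 53 members fell while 36 did not pass the test, against 17.5% of all tested genes lower and 22.6% higher. Those that fell included the checkpoint genes Mad2l1 and Bub1, the kinesins Kif15, Kif18a and Kif20b, the condensin genes Smc2, Smc4 and Ncapg, and the Ndc80 complex genes Ndc80, Nuf2 and Spc24. All 53 estimates were negative, but the count of calls rested on single libraries: it was 5 without E13 B, 9 without E11 B, 10 without E11 C and 37 without E17 B, a library of neither age compared. Espl1, Kif20b, Mad2l1 and Smc2 were called under every alternative that was run.

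The spread between animals was largely shared among members. At E17, library B was the lowest for 53 of 53 members and the median ratio of the highest to the lowest library was 1.41. At E13, library B was the lowest for 51 of 53, with a median ratio of 1.19. E11 and P1 were tighter, with median ratios of 1.07 and 1.16. In the same E17 B library the intermediate progenitor sum was the lowest of that age (371 CPM, against 398 and 486), the radial glia sum the highest (1410 CPM, against 1210 and 1260), and the neuronal sum was 10600 CPM against 10700 and 10900. Ratios of 2 members within a library, given below, lessen this shared movement but do not remove it, since E17 B was also the highest E17 library in the ratios of Bub3 to Bub1, Ncapd2 to Ncapg, Incenp to Aurkb and Pttg1 to Espl1.

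In CPM without regard to gene length, every later library lay below every earlier one for 48 of 53 members between E11 and E13, where 24.2% of all tested genes did so. The 5 members with overlapping libraries were Cenpm, Spc25, Kif14, Ncapd2 and Mki67. Between E13 and E17 the ages did not overlap for 53 members (38.3% of all genes), between E17 and P1 for 52 (31.5%), and between E11 and P1 for 53 (43%).

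**Figure D2:**
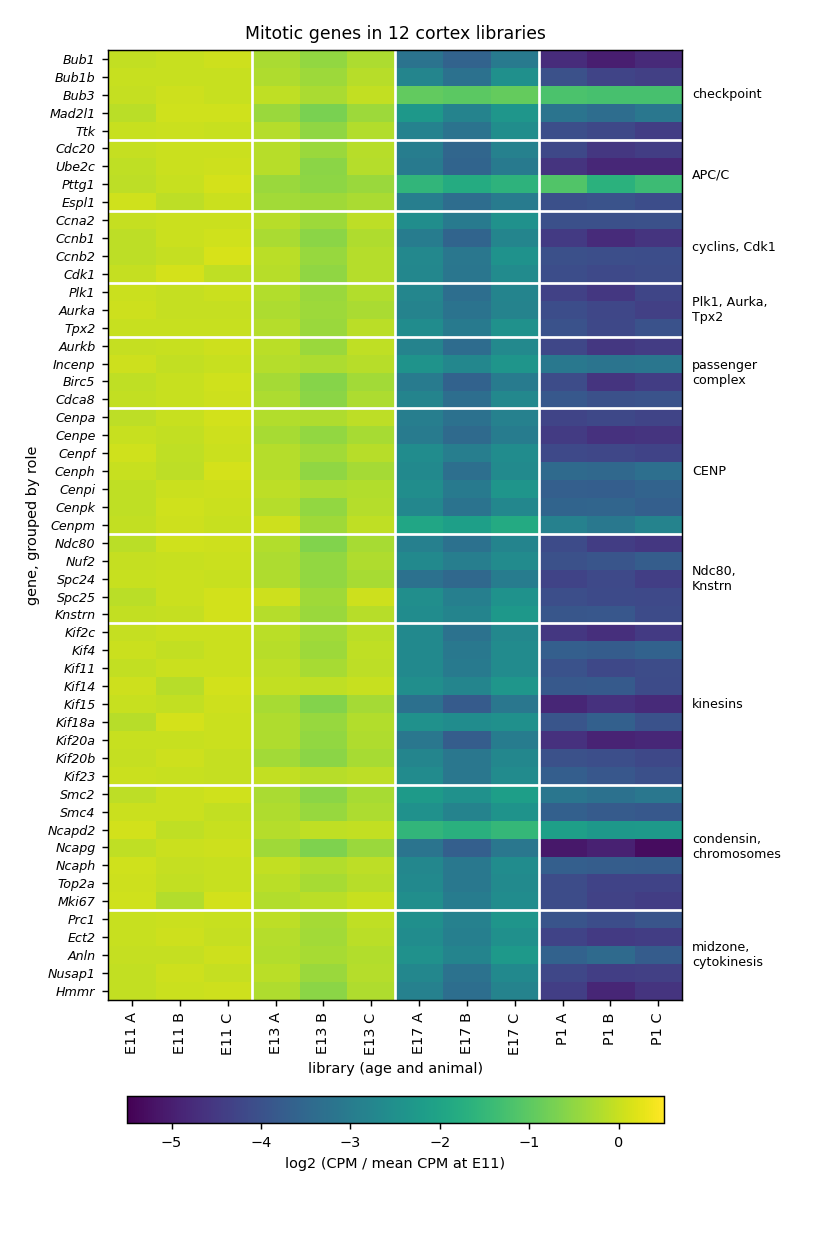
log2 of CPM over the mean CPM at E11 for the 53 members (rows, grouped by role) in 12 libraries (columns). Most rows share one course down to P1, and Bub3, Pttg1 and Ncapd2 stay lighter at E17 and P1, while Ncapg is the darkest row at P1.

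The promoters of the members are shown here because genes that are read late in the cell cycle often carry, near their start, a cell cycle homology region (CHR) with the letters TTTGAA and a CCAAT box, which binds the factor NF-Y. The stretches are the 250 bases before the start of transcription, from RefSeq on GRCm38.p6. They were found for 46 of 53 members. The entries for Tpx2, Aurkb, Incenp, Spc24, Smc4, Ccna2 and Kif20a were not matched. Capitals mark TTTGAA and CCAAT on either strand, so that TTCAAA and ATTGG are their reverse complements. Cdk1 and Cdc20 followed the common course, Ncapg kept the smallest share of its E11 level, and Bub3, Ncapd2 and Pttg1 kept the largest shares. The positions are chr10:69352913-69353162 (minus strand) for Cdk1, chr4:118437344-118437593 (minus) for Cdc20, chr5:45669675-45669924 (plus) for Ncapg, chr7:131560120-131560369 (plus) for the upstream start of Bub3, chr6:125191587-125191836 (minus) for Ncapd2 and chr11:43425982-43426231 (minus) for Pttg1. Each ends at the last base before the start of its gene.

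Cdk1: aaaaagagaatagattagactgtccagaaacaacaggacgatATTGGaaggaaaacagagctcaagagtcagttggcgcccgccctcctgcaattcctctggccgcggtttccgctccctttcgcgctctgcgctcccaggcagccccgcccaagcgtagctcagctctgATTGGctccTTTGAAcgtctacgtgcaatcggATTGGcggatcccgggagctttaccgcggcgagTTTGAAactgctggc
Cdc20: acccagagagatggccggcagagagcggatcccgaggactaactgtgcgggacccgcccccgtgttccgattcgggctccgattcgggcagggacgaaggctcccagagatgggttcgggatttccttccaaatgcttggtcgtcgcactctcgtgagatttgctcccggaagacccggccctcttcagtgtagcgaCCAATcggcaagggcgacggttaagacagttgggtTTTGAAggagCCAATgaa
Ncapg: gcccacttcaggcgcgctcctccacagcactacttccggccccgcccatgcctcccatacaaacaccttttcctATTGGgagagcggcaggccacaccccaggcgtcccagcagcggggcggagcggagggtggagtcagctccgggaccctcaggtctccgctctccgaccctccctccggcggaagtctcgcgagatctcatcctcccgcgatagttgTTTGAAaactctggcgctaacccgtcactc
Bub3: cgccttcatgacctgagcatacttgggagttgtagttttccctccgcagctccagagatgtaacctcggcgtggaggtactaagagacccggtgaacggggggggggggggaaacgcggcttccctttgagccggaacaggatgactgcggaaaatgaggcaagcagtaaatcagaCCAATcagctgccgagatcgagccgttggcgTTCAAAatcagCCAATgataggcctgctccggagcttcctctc
Ncapd2: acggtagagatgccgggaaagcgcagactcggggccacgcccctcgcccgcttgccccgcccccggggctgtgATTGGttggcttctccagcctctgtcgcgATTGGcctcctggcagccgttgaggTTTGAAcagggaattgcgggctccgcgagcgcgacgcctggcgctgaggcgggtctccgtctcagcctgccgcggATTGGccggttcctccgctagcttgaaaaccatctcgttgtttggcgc
Pttg1: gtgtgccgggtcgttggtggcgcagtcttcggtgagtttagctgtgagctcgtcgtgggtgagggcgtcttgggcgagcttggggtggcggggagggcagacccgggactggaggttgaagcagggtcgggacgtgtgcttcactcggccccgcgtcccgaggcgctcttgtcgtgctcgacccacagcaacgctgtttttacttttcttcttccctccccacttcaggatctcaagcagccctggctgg

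The letters TTTGAA lay in the 250 bases of 17 of 46 members (37.0%) and of 18.3% of 27025 genes in the promoter table. CCAAT lay in 31 of 46 members (67.4%) and in 37.5% of all genes, and both lay in 15 members (32.6%) and in 6.45% of all genes. With the 50 bases after the start also searched, TTTGAA was found for 67.4% of members and 20.2% of all genes, and CCAAT for 71.7% and 41.1%. Of the 7 matched members that fell less from E11 to P1 than the median member, by the test described in the next paragraphs, 3 had TTTGAA before the start (42.9%), as did 14 of the other 39 (35.9%). With the bases after the start it was 3 of 7 against 28 of 39 (71.8%). Of the 3 members whose RNA fell least, Bub3 and Ncapd2 hold both TTTGAA and CCAAT in the stretches above, and Pttg1 holds neither. These are matches of letters and not mapped sites, and the groups of genes were not tested against each other.

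Members that departed from the common fall were sought by rescaling each library to its median member and refitting the same edgeR model to all genes. A member was called where its log2 difference from the median member passed an adjusted p of 0.05 over all tested genes and was at least 1.5-fold. From E11 to E13, 0 members departed in edgeR and 0 in limma-voom, 0 had an unadjusted p under 0.05 in edgeR, and differences from the median member ran from -0.27 to 0.18, whereas 20.1% of all tested genes departed. From E13 to E17, 6 of 53 departed (93.4% of all tested genes), from E17 to P1, 5 (88%), and from E11 to P1, 13 (96.9%). Members are near the median member by construction, so their low share beside the background is not a result.

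From E11 to P1, 8 members fell less than the median member and 5 fell more. Bub3 and Pttg1 stood farthest out, at 2.86 ± 0.14 and 2.70 ± 0.20 log2 units above the median member (SE, adjusted p = 3.41e-18 and 4.84e-14). Ncapd2 followed at 1.85 ± 0.14. Cenpm (1.16), Incenp (0.94), Smc2 (0.91), Mad2l1 (0.85) and Cenph (0.68) fell less by smaller margins. Ncapg lay below the median member, at a log2 difference of -1.03 ± 0.15 (adjusted p = 1.25e-07), with Bub1 at -0.75, Kif20a at -0.70, Kif15 at -0.67 and Ube2c at -0.66. Just outside the limits were Ccnb1 at -0.53, Hmmr at -0.52, Cenpe and Kif2c at -0.48, Anln at 0.49 and Cenpk at 0.48.

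The members that fell less did so mainly in the steps after E13. Between E13 and E17 they were Bub3 (1.76 above the median member), Pttg1 (1.36), Ncapd2 (1.09), Cenpm (0.74), Smc2 (0.67) and Mad2l1 (0.59), and 0 fell more by the same limits, although 6 had an unadjusted p under 0.05 in that direction. Between E17 and P1 they were Pttg1 (1.56), Bub3 (1.00), Cenph (0.72), Incenp (0.63) and Ncapd2 (0.62), and again 0 fell more, with 5 at an unadjusted p under 0.05. With the median member as the scale and all 12 libraries, the 5 that fell more over the whole span therefore passed the limits in no single step. Of the 13 calls from E11 to P1, 11 held under every other scaling, tool, filter, block and left-out library that was run, and 5 passed a 2-fold minimum in place of the 1.5-fold one. Mad2l1 and Cenph gave differences of 0.55 and 0.38, under the 1.5-fold limit, when the summed members rather than the median member set the scale. With that scale the calls from E11 to P1 numbered 19, of which 13 fell more and 6 less, so further members passed as falling more. Below, whether a member departed is given with the median member as the scale unless another is named. Between E17 and P1 the summed scale gave 4 calls, of which 2 fell more and 2 less. Leaving out P1 B gave 7 calls in that step, of which 1 fell more and 6 less. The error of the scale itself is not part of the test.

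**Figure D3:**
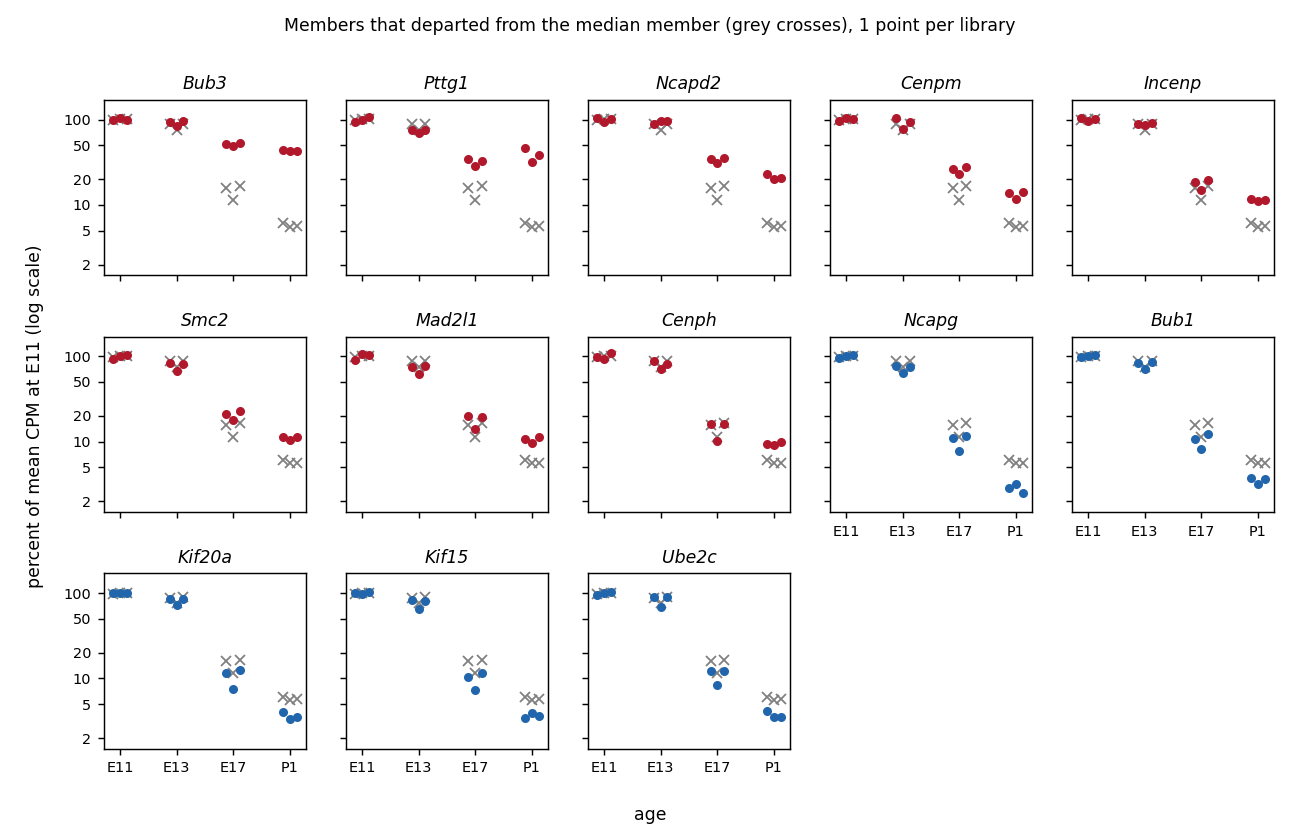
Percent of the mean E11 level (log scale) in each library for the 13 members that departed between E11 and P1 (points, red for a smaller fall and blue for a larger one), with the median member of the library as grey crosses. The 3 Bub3 points at P1 lie near 42.7% and those of Ncapg near 2.88%, on either side of the median member.

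The spindle assembly checkpoint was the role with the widest spread among its members. Its 5 genes all fell from E11 to P1, with log2 fold changes from -4.83 for Bub1 to -1.23 for Bub3. Bub3, which carries Bub1 and the Bub1b protein to the kinetochore, had 174, 183 and 178 CPM at E11, 169, 149 and 173 at E13, 92.8, 87.9 and 94.8 at E17, and 78.1, 75.3 and 75.4 at P1. Bub1, a kinase of the same checkpoint, had 151, 157 and 160 CPM at E11, 130, 112 and 133 at E13, 16.9, 12.9 and 19.1 at E17, and 5.83, 4.92 and 5.66 at P1. This pair thus began at like CPM and ended far apart, with no overlap between E11 and P1 for either gene. Bub3 was 2.34-fold lower at P1 than at E11 (log2 -1.23 ± 0.06, adjusted p = 1.45e-10) and Bub1 28.5-fold lower (-4.83 ± 0.13, adjusted p = 1.91e-12). The ratio of Bub3 to Bub1 reads was 1.15, 1.17 and 1.11 in the E11 libraries, 1.29, 1.33 and 1.30 at E13, 5.5, 6.80 and 4.97 at E17, and 13.4, 15.3 and 13.3 at P1. It was higher at each later age without overlap between libraries. Lengths cancel in this change only if each of the 2 genes kept transcripts of the same length at all ages, which was not examined.

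Mad2l1 encodes the protein that binds and restrains Cdc20. It had 118, 136 and 134 CPM at E11, 97.7, 79.2 and 98.7 at E13, 26.1, 18.4 and 25.4 at E17, and 14, 12.6 and 14.7 at P1. It had the most negative estimate of all members from E11 to E13 (log2 -0.49 ± 0.12, adjusted p = 0.00631) and then a smaller fall than the median member from E13 to E17 (-1.98 ± 0.13). That difference of 0.59 lay close to the limit and was under it without E13 B, without E17 A, without E17 B and with the summed members as the scale. The checkpoint genes Bub1b and Ttk stayed with the common course, both with a log2 fold change of -4.21 from E11 to P1.

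Among the activators and targets of the anaphase promoting complex, Pttg1 behaved unlike the other 3. Pttg1 is securin, the inhibitor of separase, and had 9.37, 9.96 and 10.8 CPM at E11, 7.59, 6.96 and 7.56 at E13, 3.41, 2.86 and 3.26 at E17, and 4.58, 3.17 and 3.82 at P1. It fell from E11 to E13 (log2 -0.44 ± 0.13, adjusted p = 0.0145) and from E13 to E17 (-1.21 ± 0.14, adjusted p = 2.53e-06), and its E17 and P1 libraries overlapped. Without P1 B its estimate from E17 to P1 became 0.42 with an adjusted p of 0.0233, a rise; under the other alternatives the adjusted p ran from 0.0839 to 0.373. Pttg1 was the member with the lowest CPM at E11. At 5.02 mean CPM per kilobase of all its annotated exons it was also near the lowest by that measure, above Kif14 at 4.82.

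Espl1 is separase, the protease that opens the cohesin ring and that securin holds inactive. Its mean was 141 CPM at E11, 114 at E13, 16.6 at E17 and 8.66 at P1, a fall of 4.03 on the log2 scale that lay on the common course. The ratio of Pttg1 to Espl1 reads was 0.0629, 0.0752 and 0.0754 at E11, 0.0674, 0.0628 and 0.0644 at E13, 0.185, 0.208 and 0.185 at E17, and 0.533, 0.352 and 0.456 at P1. Its values were alike at E11 and E13 and higher in every E17 and P1 library. Ube2c, the ubiquitin-conjugating enzyme that serves the complex, had 184, 196 and 198 CPM at E11, 173, 132 and 172 at E13, 23.7, 16.3 and 23.5 at E17, and 7.94, 6.80 and 6.80 at P1, a 26.8-fold fall. Cdc20, the activator that the checkpoint blocks, fell by 4.38 on the log2 scale.

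The cyclins and their kinase Cdk1, which drives entry into mitosis, moved closely together. Ccna2, Ccnb1, Ccnb2 and Cdk1 fell by 4.03 to 4.61 on the log2 scale from E11 to P1, and none of the 4 departed in any step. Ccna2, the cyclin of S and G2 phase, had 315, 326 and 325 CPM at E11, 294, 248 and 300 at E13, 54.9, 39.7 and 58 at E17, and 19.6, 19.6 and 20.1 at P1. Ccnb1, the B-type cyclin that Cdk1 needs for mitosis, had 149, 162 and 168 CPM at E11, 134, 110 and 138 at E13, 20.3, 13.5 and 23.5 at E17, and 7.11, 5.90 and 6.61 at P1. Reads of Ccnb1 relative to Cdk1 gave a ratio of 0.747 to 0.873 at E11 and 0.531 to 0.595 at P1, so that ratio also moved, but over a much smaller range than that of Bub3 to Bub1.

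Plk1, Aurka and Tpx2, which build and orient the spindle poles, fell by 4.05 to 4.37. Plk1, the Polo kinase, had 128, 125 and 128 CPM at E11, 112, 95.8 and 111 at E13, 18.8, 12.6 and 18.3 at E17, and 6.29, 5.46 and 6.68 at P1. Tpx2, the spindle factor that activates Aurora A, had 326, 328 and 327 CPM at E11, 290, 246 and 299 at E13, 54.5, 39.8 and 59.5 at E17, and 20.7, 17.8 and 20.7 at P1. Both genes had tight E11 libraries, and neither departed from the median member.

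The chromosomal passenger complex corrects faulty attachments and later moves to the midzone. Its kinase Aurkb had 126, 129 and 132 CPM at E11, 119, 97.7 and 123 at E13, 18.2, 12.5 and 20.2 at E17, and 6.90, 5.59 and 6.02 at P1. Its scaffold Incenp had 212, 197 and 206 CPM at E11, 182, 175 and 186 at E13, 38.2, 31 and 39.9 at E17, and 23.9, 22.6 and 23.1 at P1. Aurkb fell 20.9-fold from E11 to P1 (log2 -4.39 ± 0.16) and Incenp 8.83-fold (-3.14 ± 0.08). Birc5 and Cdca8, the other subunits, fell by 4.36 and 3.95 on the log2 scale. Incenp kept to the common course up to E17 and departed between E17 and P1 (log2 -0.65 ± 0.08, where the median member changed by -1.34), a difference of 0.63 that was 0.49, under the limit, with the summed members as the scale. The ratio of Incenp to Aurkb reads was 1.53 to 1.68 at E11, 1.51 to 1.79 at E13, 1.97 to 2.49 at E17 and 3.47 to 4.03 at P1.

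The 7 centromere and CENP genes fell by a median of 3.66 on the log2 scale from E11 to P1, beside 4.1 for all members. Cenpm, Cenph, Cenpi and Cenpk encode parts of 1 complex of the inner kinetochore, and all 4 had estimates nearer 0 than the median member, at -2.92, -3.40, -3.66 and -3.60. Cenpi and Cenpk did not depart by the limits used. With Pttg1, these 4 had the lowest mean CPM of the members at E11, at 20.4, 31.9, 38.1 and 28.1. The smaller fall was not particular to this complex. The 28 other kinetochore genes described below had a median of -2.85 (range -4.82 to 0.13). Cenpm had 19.6, 21.1 and 20.4 CPM at E11, 21, 16 and 19.3 at E13, 5.30, 4.73 and 5.70 at E17, and 2.82, 2.37 and 2.89 at P1. Cenph had 31.6, 29.7 and 34.4 CPM at E11, 28.2, 22.5 and 25.8 at E13, 5.11, 3.22 and 5.18 at E17, and 2.96, 2.89 and 3.20 at P1. E17 B stood apart from the other E17 libraries for Cenph, and its fall from E17 to P1 (log2 -0.59 ± 0.16, adjusted p = 0.00817) gave an adjusted p of 0.0526 without E17 C. With the summed members as the scale, the departures of Cenph from E17 to P1 and of Cenpm from E13 to E17 were both 0.58, under the limit.

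Cenpe and Cenpf, large proteins of the outer kinetochore, and Cenpa, the histone that marks the centromere, fell more, by 4.56, 4.23 and 4.25. Cenpe, a motor that carries chromosomes to the spindle equator, had 252, 241 and 259 CPM at E11, 207, 181 and 204 at E13, 31.2, 23.3 and 31.9 at E17, and 11.5, 10.1 and 10.4 at P1. Genes of the Ndc80 complex, the main microtubule holder of the kinetochore, did not depart from the common course, and Ndc80, Nuf2, Spc24 and Spc25 fell by 4.35, 3.88, 4.28 and 4.13. Ndc80 had 63.8, 72.2 and 70.7 CPM at E11, 60.5, 44 and 56.7 at E13, 9.32, 7.23 and 9.99 at E17, and 3.92, 3.25 and 3.01 at P1. Nuf2, its partner, had 96.1, 97.9 and 98.3 CPM at E11, 82.8, 70.3 and 84.5 at E13, 15.6, 12.8 and 16.1 at E17, and 6.07, 6.42 and 7.30 at P1. Their ratio, that of Nuf2 to Ndc80 reads, ran from 1.35 to 1.51 at E11 and from 1.55 to 2.43 at P1.

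**Figure D4:**
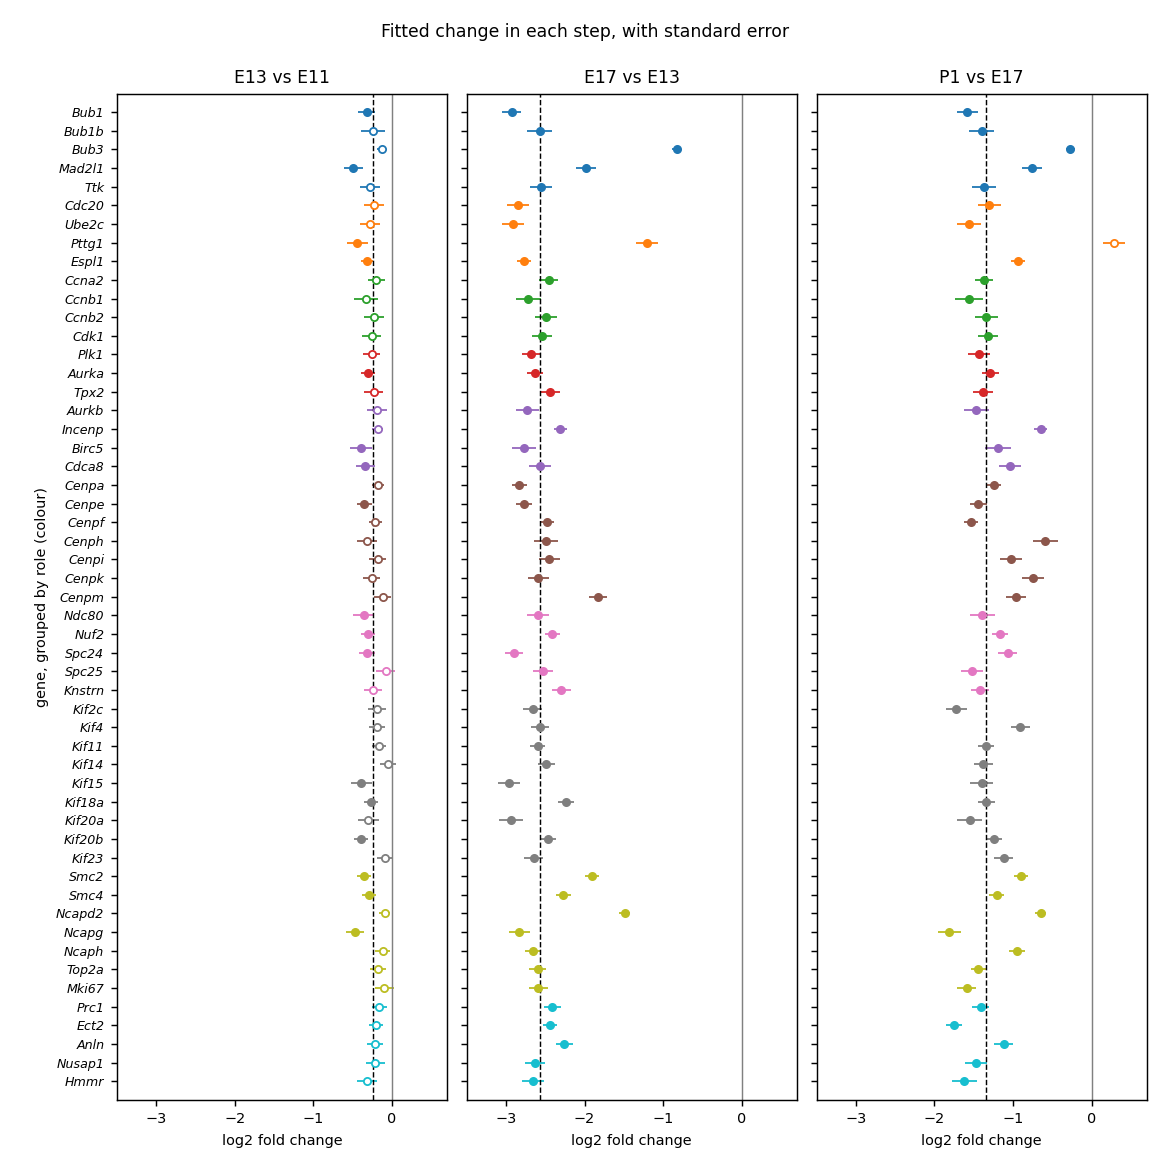
Fitted log2 fold change with its standard error for the 53 members in the steps E11 to E13, E13 to E17 and E17 to P1, coloured by role, with filled points where the adjusted p was under 0.05. The dashed line is the median member (-0.24, -2.57 and -1.34). Bub3, Pttg1 and Ncapd2 lie to the right of it in the last 2 panels.

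The 9 kinesins fell by 3.68 to 4.79 on the log2 scale. Kif20a, which works at the midzone during cytokinesis, had 189, 190 and 194 CPM at E11, 164, 138 and 164 at E13, 22.1, 14.4 and 24 at E17, and 7.67, 6.37 and 6.71 at P1. Kif15, a motor that helps keep the spindle bipolar, had 193, 187 and 199 CPM at E11, 158, 126 and 156 at E13, 19.9, 14 and 22.2 at E17, and 6.68, 7.68 and 6.97 at P1. Both fell more than the median member, by 27.6-fold and 27.1-fold in all. Kif4, a chromosome-bound motor, had the smallest fall among the kinesins, at 12.8-fold, with 149, 140 and 148 CPM at E11, 133, 112 and 138 at E13, 23.1, 17.1 and 23.9 at E17, and 11.4, 10.8 and 12 at P1. Kif4 did not depart by the limits used.

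The subunits of condensin I, the ring that compacts mitotic chromosomes, spread from the largest fall of all 53 members to the third smallest. Ncapd2 had 502, 448 and 477 CPM at E11, 426, 451 and 460 at E13, 163, 146 and 168 at E17, and 109, 96.6 and 97.3 at P1. Ncapg had 158, 169 and 170 CPM at E11, 129, 105 and 126 at E13, 18.1, 12.8 and 19.2 at E17, and 4.79, 5.36 and 4.20 at P1. Ncapd2 was 4.70-fold lower at P1 than at E11 (log2 -2.23 ± 0.07, adjusted p = 2.99e-12), and Ncapg was 34.7-fold lower (-5.12 ± 0.15, adjusted p = 7.05e-12). The ratio of Ncapd2 to Ncapg reads was 3.16, 2.65 and 2.80 at E11, 3.30, 4.29 and 3.66 at E13, 9.02, 11.4 and 8.75 at E17, and 22.8, 18.0 and 23.2 at P1. It was higher at each later age with no overlap between libraries.

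The other condensin I subunits lay between. Ncaph, the bridging subunit, fell by 3.73, and its ratio to Ncapg went from 0.734 to 0.838 at E11 to 1.78 to 2.24 at P1. Smc2 and Smc4, the ATPase pair that condensin I and II share, fell by 3.17 and 3.77. Smc2 had 250, 272 and 280 CPM at E11, 224, 182 and 219 at E13, 56.6, 48.5 and 60.3 at E17, and 30.4, 27.9 and 30.5 at P1, and the ratio of Smc2 to Smc4 reads was 0.612 to 0.717 at E11 and 0.951 to 1.10 at P1. The smaller fall of Smc2 from E13 to E17 was under the 1.5-fold limit without E17 B and with the summed members as the scale. That of Ncapd2 from E17 to P1 was under it without E17 A, without E17 C and with the summed members.

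Per kilobase of exon, Top2a had the highest mean at E11 (110 CPM per kilobase), followed by Cdc20 (94.3) and Mki67 (86.2). The length used is that of all annotated exons of a gene and not of the transcripts present, so the order between genes is approximate. At P1 the order was led by Ncapd2 (16.1) and Bub3 (10.9), with Top2a at 5.88. Top2a, topoisomerase II alpha, and Mki67, the coat protein of mitotic chromosomes known as Ki-67, followed the common course, at log2 -4.22 and -4.28 from E11 to P1.

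Of the midzone and cytokinesis factors none departed. Anln, the anillin of the contractile ring, had 81.5, 81.7 and 85.1 CPM at E11, 73, 68 and 72.5 at E13, 15, 11.9 and 17.4 at E17, and 6.71, 7.68 and 6.16 at P1. Hmmr, a spindle protein that binds hyaluronan, had 102, 108 and 108 CPM at E11, 91.2, 72.3 and 91.3 at E13, 14.5, 10.5 and 15.1 at E17, and 5.06, 3.66 and 4.39 at P1. Anln fell 12.1-fold and Hmmr 24.3-fold, the ends of the range in this role, with Prc1, Ect2 and Nusap1 between them.

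Some exons of members overlap other genes in the GENCODE M21 annotation, and whether the authors counted by strand is not given in the sources used here. Genes on the opposite strand cover 29.3% of the exon bases of Kif20a (Cdc23), 22.8% of Ube2c (Tnnc2), 15.1% of Kif4 (Pdzd11), 13.4% of Ncapg (Lcorl) and 12.5% of Ccna2 (Exosc9). Bub3 and Pttg1 overlap none, and 3.78% of Ncapd2 is shared with small genes on its own strand.

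Other genes of chromosome segregation, from lists of the same processes, fell by amounts that varied more between lists. From E11 to P1, where 41.8% of all tested genes were lower and 40.5% higher, the 19 other spindle and cytokinesis genes all fell (median log2 -3.57), as did all 16 tested genes among 18 other kinases, phosphatases and cyclins (median -3.46). Of 28 other kinetochore genes 26 fell and 2 did not pass the test (median -2.85). Knl1, the platform on which Bub1 and Bub3 assemble, fell by 4.82, and Spdl1 by 4.77, whereas Zwint, which binds Knl1, gave 0.12 (adjusted p = 0.12) and Cenpt, of the inner kinetochore, 0.13 (adjusted p = 0.065). Dlgap5 and Cep55, of the spindle and the abscission bridge, fell by 4.78 and 4.77. These are on the scale of all genes, where the median gene changed by -0.04.

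The lists of cohesin and of the anaphase promoting complex had smaller median falls than the lists above. The same span is meant, over which 41.8% of all tested genes were lower and 40.5% higher. Of 14 cohesin genes and regulators 13 fell and 1 rose (median log2 -1.27), the riser being Mau2, a loader of cohesin, at 0.61 ± 0.06. Within that list Sgo1, Sgo2a, Cdca5 and Esco2, which guard or establish cohesion in dividing cells, fell by 4.42, 3.88, 4.48 and 4.15, and Smc1a, Smc3 and Rad21, which form the ring, by 1.00, 1.23 and 0.96. Of 15 genes of the anaphase promoting complex and its partners 11 fell, 1 rose and 3 did not pass (median -0.70). Fbxo5, an inhibitor of the complex, fell by 4.25, and the subunit Anapc5 rose by 0.20 (adjusted p = 0.00147).

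The 3 condensin II genes, whose complex sits in the nucleus throughout the cell cycle, all fell, with Ncaph2 at -0.96, Ncapd3 at -1.68 and Ncapg2 at -3.03. Among the non-SMC subunits, the G subunit had the largest fall in both condensins. Of 11 transcription factor genes linked to mitotic genes 9 fell and 2 did not pass (median -1.26). For both lists, the share of all tested genes was 41.8% lower and 40.5% higher. Mybl2 and Foxm1, activators of G2 and M phase genes, fell by 4.21 and 3.67, while of the subunits of the CCAAT-binding NF-Y, Nfyb and Nfyc fell by 0.44 and 0.56 and Nfya gave 0.01 (adjusted p = 0.888).

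**Figure D5:**
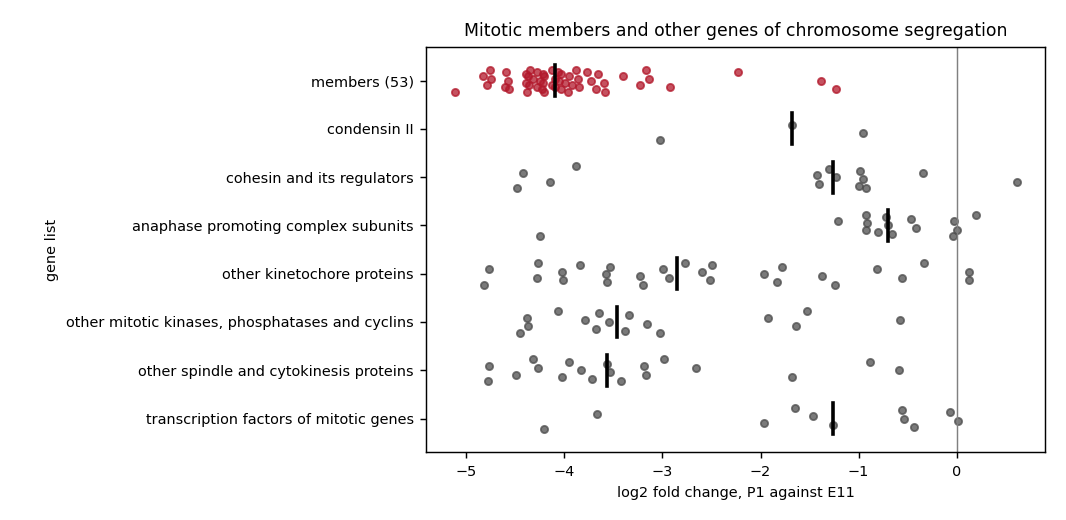
log2 fold change from E11 to P1 for the 53 members and for 7 lists of other genes of chromosome segregation, 1 point per gene, with the median of each list as a black bar. The members sit around -4.1 and the anaphase promoting complex list around -0.70, with Mau2 the point farthest to the right at 0.61.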

How the data were processed

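RNA of cerebral cortex from 12 mice was sequenced as 75 bp single reads on a NextSeq instrument from stranded TruSeq mRNA libraries, per the labels' protocols. The deposited values are raw read counts per Ensembl gene, made by the authors with no normalization. Per the submitters' processing notes, the tools were STAR 2.5.2b and HTSeq 0.5.3, with bcl2fastq 2.18, DESeq2 1.8.1 and SAMtools also listed. What each did, and the build, annotation and strand option, is not given in the sources used here.

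The analysis used edgeR 4.0.16 under R 4.3.3. A minimum count of 10 in filterByExpr kept 17847 genes, and TMM factors were 0.92 to 1.09. All 12 libraries entered 1 quasi-likelihood fit (robust) with age as the only factor. Two-sided p-values were adjusted across the tested genes (Benjamini-Hochberg, threshold 0.05). The standard error of a log2 fold change is its size over the square root of F. Departure from the common fall was tested by the same model with each library size multiplied by the level of its median member (log2 CPM, prior count 2). Because nearly every gene differs from the mitotic scale, that adjustment is lenient. The scripts were tested on simulated data. Replicates are different animals, and no pair of libraries of an age agreed within sampling noise (chi-squared per degree of freedom 10.2 to 29.8). Total counts limit the precision of low genes only. Alternatives used limma 3.58.1 and DESeq2 1.42.0.

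The members and lists were chosen with earlier results of these data known. The members described library by library were those called as departing from E13 to E17 or from E11 to P1 and, in each role, the largest and smallest falls. Of the other lists, the 4 largest falls and the 4 smallest falls or largest rises were named by rule, and further genes of them, like the pairs used for ratios, were chosen after their values were seen. Sequences come from RefSeq promoters on GRCm38.p6. Exon lengths and overlaps come from GENCODE M21, whose match to the authors' annotation is unknown.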

Additional observations from a re-analysis of the deposited data

How the results depend on the processing

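The falls from E13 to E17, from E17 to P1 and from E11 to P1 kept their direction under every alternative run, with 53, 51 to 53 and 53 of 53 members called; the single rise was Pttg1 without P1 B. The median fall from E11 to P1 was -4.20 with upper-quartile factors and -4.33 with library size alone, against -4.10. The count from E11 to E13 was 17, but 27 with upper-quartile factors, 31 with limma-voom, 35 with only the ages compared, 4 with E17 A, E13 C and E11 C all left out (chosen after seeing the data) and 5 to 37 with a replicate left out; no member gave a positive estimate there except Spc25 (0.046) without E13 B. With the replicate letter as a block it was 28; the letters mark no shared litter, and correlations of the deviations of same-lettered libraries ran from -0.44 to 0.40, so this is no paired result. The block moved no other count of members by over 1.5 times. Departing members numbered 6 from E13 to E17, but 14 with no fold minimum, 3 with a 2-fold minimum, 3 with the summed members as the scale and 4 to 6 with a replicate left out. From E17 to P1 they numbered 5, but 15, 1, 4 and 4 to 7 under the same settings in turn. From E11 to P1 they numbered 13, but 26, 5, 19 and 13 to 14. Of 3144 values under alternatives for the 24 members described library by library, 0 reversed, 43 lost and 57 gained a call. The causes were not tested. The 1.5-fold limit is a choice: smaller differences passed the test without it.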
